A study of Drosophila melanogaster with 2 samples.

Results

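The 300 strongest binding sites of CG7101 in adult flies were chosen by the peak strength that the authors' peak caller gave each peak. They are the top 300 of 6486 peaks on the main chromosome arms that passed a test of irreproducible discovery between replicates (IDR peaks). The 25 strongest are given here by shares and ranges, apart from those that lie close to a weaker summit, and the account is of the 275 peaks of ranks 26 to 300, called the members below. Whole adult Drosophila melanogaster females of a single transgenic line, whose age the labels give as unknown, carried the CG7101 protein with GFP at its C-terminus. Sheared chromatin was precipitated with an anti-GFP antibody and sequenced (ChIP-seq), in 2 biological replicates of this 1 group. There was no other group, and the control library was not analysed here. Signal, the caller's peak strength as deposited, chose the members, so signal, width and replicate rank are descriptions and no test was made. Peaks of 1 genome share their libraries and are not replicates, and the 95% intervals below (Clopper-Pearson) reflect only how many peaks were counted.

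A ChIP-seq peak marks where the tagged protein, or something it is attached to, was crosslinked to DNA, and its summit is the position of highest read density. In a sample made from whole animals, a weaker peak and a peak bound in fewer cells cannot be told apart. Fly genes often start back to back, so a single summit may lie between the starts of a divergent pair. Many housekeeping promoters of the fly carry short elements such as the DNA replication-related element TATCGATA and Motif 1 (GGTCACACT), and other sites carry GAGAG, the letters read by the GAGA factor.

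Most members had an A/T-rich centre, and 37.5% had at least 1 of 6 short G/C-containing words to its sides, read outward. The stretches below run from a member's summit (first letter) outward to such a word, in capitals, with 10 bases beyond it. They are shown because the word reads 5′ to 3′ away from the summit in each of them. All are from the Release 6 (dm6) genome and lie outside annotated UTRs. The first family has the word CTACGCC, the word GCCCCTG and its variant GCCCATG. Its examples are the intronic summit in CG32486 nearest to CG16753 (rank 31), at chr3L:3060797-3060896 (plus strand), the intronic summit of CG9663 (rank 50) in both directions, at chr2L:3302192-3302248 (plus strand) and chr2L:3302090-3302192 (minus strand), the summit in the osa gene nearest to lncRNA:CR46036 (rank 42), at chr3R:17700581-17700694 (plus strand), and the promoter summits of Sptr (rank 48), at chrX:8464556-8464675 (plus strand), and Hpf1 (rank 69), at chr3R:5791666-5791756 (minus strand).
CG16753: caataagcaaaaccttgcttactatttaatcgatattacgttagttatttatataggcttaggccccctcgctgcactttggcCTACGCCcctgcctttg
CG9663: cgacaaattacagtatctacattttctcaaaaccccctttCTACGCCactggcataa
CG9663: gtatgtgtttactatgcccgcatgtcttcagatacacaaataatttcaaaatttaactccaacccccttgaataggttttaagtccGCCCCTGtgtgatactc
lncRNA:CR46036: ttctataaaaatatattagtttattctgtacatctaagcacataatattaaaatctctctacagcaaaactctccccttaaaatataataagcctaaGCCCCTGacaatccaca
Sptr: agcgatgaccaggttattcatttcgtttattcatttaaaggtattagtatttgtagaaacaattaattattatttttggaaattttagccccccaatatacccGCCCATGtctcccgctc
Hpf1: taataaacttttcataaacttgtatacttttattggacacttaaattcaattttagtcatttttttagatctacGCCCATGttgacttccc

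The second family has CACTGTA, with CCACTGT and likewise CACTGTG. They have the letters CACTGT in common and can therefore overlap. Its examples are CenG1A (rank 28) in both directions, at chr2L:13835355-13835451 (minus strand) and chr2L:13835451-13835559 (plus strand), the intronic summit of Trl (rank 27), at chr3L:14759389-14759509 (minus strand), Hex-A (rank 35), at chrX:9585381-9585475 (minus strand), Glyp (rank 65), at chr2L:2130517-2130627 (minus strand), and the intronic summit of for (rank 53), at chr2L:3655713-3655822 (minus strand).
CenG1A: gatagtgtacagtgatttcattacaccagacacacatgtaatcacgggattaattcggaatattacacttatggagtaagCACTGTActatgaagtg
CenG1A: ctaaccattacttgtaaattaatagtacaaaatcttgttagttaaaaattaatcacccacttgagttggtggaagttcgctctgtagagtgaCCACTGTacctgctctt
Trl: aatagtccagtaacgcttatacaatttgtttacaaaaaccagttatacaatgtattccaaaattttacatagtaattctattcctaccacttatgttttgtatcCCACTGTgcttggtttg
Hex-A: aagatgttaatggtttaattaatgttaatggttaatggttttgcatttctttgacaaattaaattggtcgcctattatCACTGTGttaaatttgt
Glyp: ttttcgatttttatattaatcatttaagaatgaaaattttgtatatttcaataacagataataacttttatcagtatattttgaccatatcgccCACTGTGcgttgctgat
for: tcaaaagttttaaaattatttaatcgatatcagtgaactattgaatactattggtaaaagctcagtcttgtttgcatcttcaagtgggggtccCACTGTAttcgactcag

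The centre itself is shown for CG18428 (rank 29), between its start and that of eIF4EHP, at chr3R:24109139-24109239 (plus strand), and for CG31668 (rank 33), at chr2L:2202359-2202459 (plus strand), as 50 bases to either side of the summit with A/T runs of at least 8 bases in capitals.
CG18428: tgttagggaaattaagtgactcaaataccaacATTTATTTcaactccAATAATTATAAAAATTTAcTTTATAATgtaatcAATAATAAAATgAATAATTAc
CG31668: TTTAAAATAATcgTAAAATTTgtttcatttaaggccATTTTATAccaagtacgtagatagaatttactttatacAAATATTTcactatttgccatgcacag
The A and T content of these stretches was 80.2% and 74.3%.

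GC content fell to a trough at the summits of the members. Over the 275 members it was 27.6% ± 9.39 (SD over peaks) within 25 bp of the summit, and 44.7% in stretches of the same length 500 bp to either side. It was below its own flanks at 246 members, or 89.5%, against 68.2% of all IDR peaks. At the 205 promoter members it was 27.6% ± 9.81 and at the 70 other members 27.6% ± 8.08, with flanks of 46.1% and 40.6%. It was below its own flanks at 183 promoter members (89.3%) and 63 of the others (90%). The 25 strongest peaks had 26.0% ± 5.02, ranks 301 to 600 had 29.8% ± 11.4, and ranks 1501 to 6486 had 37.4% ± 12.1. A run of at least 20 A or T bases lay within 100 bp of 56 members (20.4%, against 11.0% of all IDR peaks), and 2.55% of the members' flanks held one. The base composition profile was chosen for description after it had been seen, and its part in the strength of a peak was not tested.

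**Figure D1:**
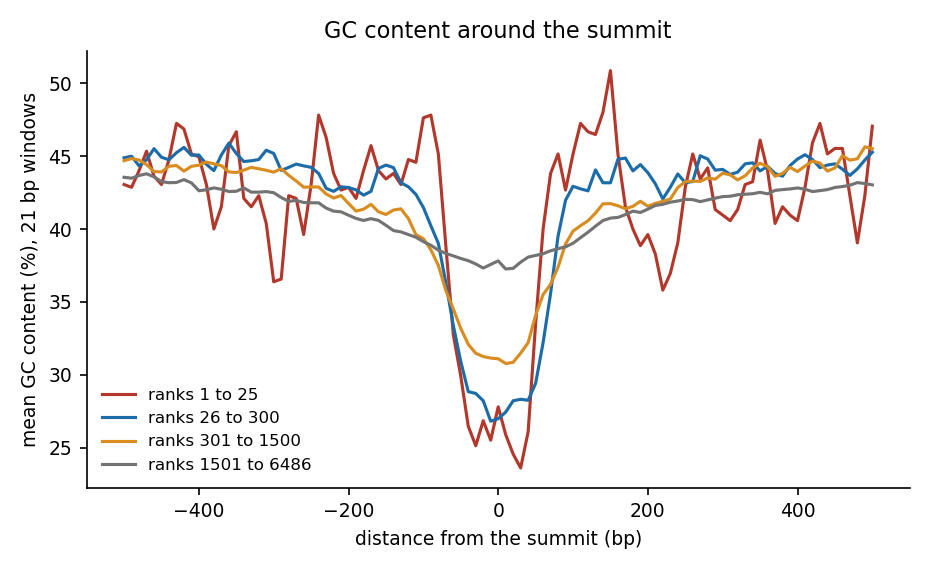
Mean GC content in 21 bp windows against distance from the summit, 1 line per class of IDR rank. The trough of ranks 26 to 300 is narrow, with 27.0% at the summit and 41.5% to 42.9% at 100 bp to either side, and is shallower in the weaker classes.

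Words of the first family read outward from 41 of 275 members (14.9%, 95% Clopper-Pearson interval 10.9 to 19.7) at 25 to 150 bp from the summit, and inward at 2. Over all IDR peaks 3.41% held one outward. CTACGCC was outward at 20 members and inward at 0, GCCCCTG at 26 and 1, and GCCCATG at 10 and 1. The outward share of the family was 36.0% (17.97 to 57.5) in the 25 strongest peaks, 24.0% at ranks 26 to 100, 11% at ranks 101 to 200, 12% at ranks 201 to 300, 5.0% at ranks 301 to 600 and 2.55% at ranks 1501 to 6486. The 3 words differed in this. In the 25 strongest CTACGCC was outward at 28.0%, GCCCATG at 24.0% and GCCCCTG at 0%. GCCCCTG then had 14.7%, 7.0% and 8.0% at ranks 26 to 100, 101 to 200 and 201 to 300. Within the range of 25 to 150 bp, the outward sites of CTACGCC lay at a median of 75 bp from the summit (quartiles 63 and 99). Those of GCCCCTG lay at 90 bp and those of GCCCATG at 96 bp. The range itself bounds these medians, and outward sites beyond it, such as CTACGCC at Pdrg1 (238 bp), are left out. Where CTACGCC is followed by CCTG or CATG the words of this family are a single site, as at CG16753 above.

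The second family was read outward at 63 members (22.9%, interval 18.1 to 28.3) and inward at 11, against 10.9% outward over all IDR peaks. CCACTGT was outward at 41 members and inward at 5, CACTGTA at 34 and 2, and CACTGTG at 31 and 6. Its share was 20% (6.83 to 40.7) in the 25 strongest peaks, of which 16% held one inward, then 14.7%, 30% and 22.0% at ranks 26 to 100, 101 to 200 and 201 to 300, 20% at ranks 301 to 600 and 9.23% at ranks 1501 to 6486. The median distances of the 3 words from the summit, for outward sites within that same range only, were 94 to 95 bp. Outward sites lay on both sides of the summit at 28 of the 63 members (44.4%, interval 31.9 to 57.5), against 17.9% (14.97 to 21.1) of the weaker IDR peaks that held one. For the first family that count was 8 of 41 members (19.5%, 8.82 to 34.9), against 3.51% (1.30 to 7.48).

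**Figure D2:**
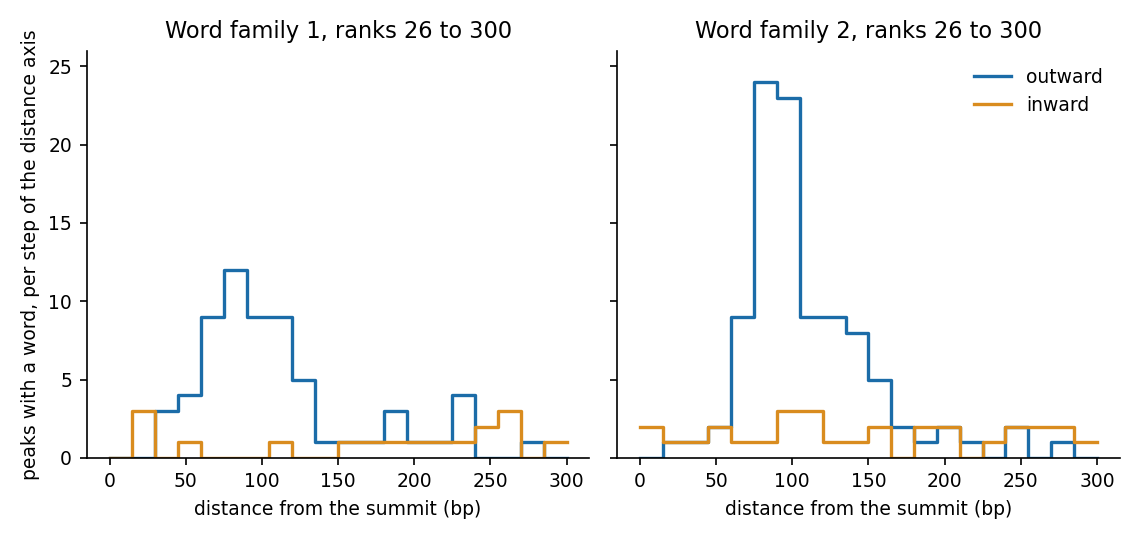
Number of peaks of ranks 26 to 300 with a word at each distance from the summit in 15 bp steps, for the family with CTACGCC (left) and the family with CACTGT (right). Outward words are most frequent at 75 to 90 bp, with 12 peaks in family 1 and 24 in family 2, while inward words stay at 3 or fewer in every step.

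Both families were held by 1 member (0.364%), the promoter summit of MFS10 (rank 68), and by 20 of all IDR peaks (0.308%). At MFS10 the outward words, CTACGCC at 63 bp and CCACTGT at 68 bp, overlap and are a single stretch. Of the members 172 members (62.5%) held neither, and 103 (37.5%, interval 31.7 to 43.5) held at least 1 of the 6 words, against 14.0% of all IDR peaks. At promoters 31 of 205 members (15.1%, 10.5 to 20.8) held the first family and elsewhere 10 of 70 (14.3%, 7.07 to 24.7). The second family was at 39 promoter members (19.0%, 13.9 to 25.1) and at 24 of the others (34.3%, 23.3 to 46.6). Among weaker IDR peaks it was likewise at 8.28% of promoter summits and 13.7% of the rest. Where a promoter summit lay upstream of its start and held words on 1 side only, the word was on the side of the start at 16 of 21 members for the first family (76.2%, 52.8 to 91.8) and at 12 of 22 for the second (54.5%, 32.2 to 75.6). In the weaker IDR peaks these shares were 66.2% and 58.9%, within those intervals. With either orientation counted, CTACGCC lay within 150 bp of 7.64% of members, 1.79% of all IDR summits and 1.36% of 19253 protein-coding start positions in a window of equal length, from 250 bp upstream to 50 bp downstream. CCACTGT was at 16.7%, 8.83% and 3.82% in that order. These words, their outward reading and their distance range were chosen from these sequences. The contrasts of outward with inward words, of members with other IDR peaks and of rank classes, and the distances, are therefore descriptions only. The intervals do not account for that choice.

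**Figure D3:**
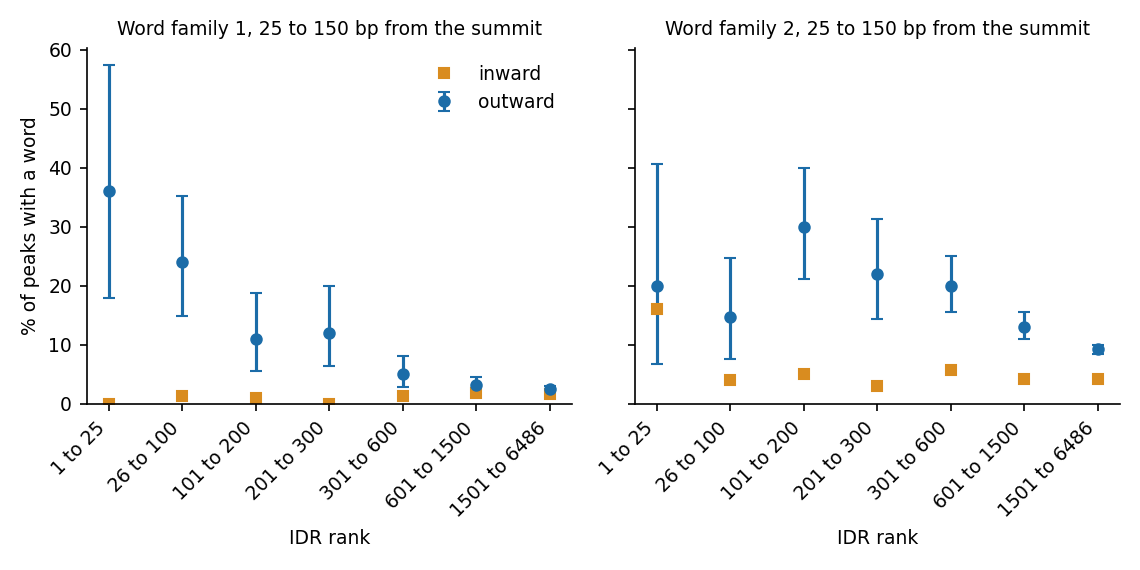
Share of IDR peaks with an outward word (circles, bars are 95% Clopper-Pearson intervals) or an inward word (squares) 25 to 150 bp from the summit, by class of IDR rank, for family 1 (left) and family 2 (right). Family 1 drops from 36.0% to 2.55% with rank, and family 2 stays between 14.7% and 30% in the first 5 classes and reaches 9.23% in the last.

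Of 11 known words, TATAAA had a higher share at the members than over all IDR peaks. For the DREF element, Motif 6, the E-box CACGTG, the GAGA word and the Zelda word the interval of the members held the overall share, and for the others it lay below. Each was counted on both strands within 100 bp of the summit. TATAAA, the TATA box sequence, was at 127 members (46.2%, interval 40.2 to 52.3), against 34.0% of all IDR peaks and 16% of the members' flanks, and the word is itself A/T-only. TATCGATA, bound by DREF, was at 11 members (4.0%, 2.01 to 7.04) against 5.69% of all IDR peaks. The shorter CGATA was at 24.0% against 35.1%. Motif 1 was at 1 member against 2.93%, Motif 6 at 0 (up to 1.33% by the interval) against 1.02%, and Motif 7 at 10 (3.64%) against 7.37%. Motifs 6 and 7 are degenerate, and their shares depend on the consensus chosen here. CAGCTG, an E-box, was at 4.73% against 10.8%, and the E-box CACGTG at 2.55% against 2.37%. GAGAG was at 20.4% against 24.0%, the repeat CACACACA at 4 members against 4.90%, and CAGGTAG, the word of the embryonic activator Zelda, at 0 against 0.817%. In the members' flanks TATCGATA was at 0.909%, CGATA at 19.3%, Motif 7 at 1.45% and CACGTG at 1.82%, each below its share at the members. There GAGAG was at 31.3%, CACACACA at 6.91%, CAGCTG at 10.2% and CAGGTAG at 0.909%, each above it. Motifs 1 and 6 had equal shares in both. Among all 19253 protein-coding start positions, windows of 201 bp held TATCGATA in 6.79%, Motif 1 in 4.66% and TATAAA in 29.6%. The stretches at Shc (rank 95), at chr3L:9426944-9426983 (plus strand), and RpL28 (rank 280), at chr3L:3223029-3223068 (plus strand), are members that do carry the DREF element, in capitals.
Shc: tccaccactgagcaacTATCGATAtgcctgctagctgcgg
RpL28: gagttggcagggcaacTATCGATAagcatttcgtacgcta

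Most members lay just upstream of a start. Within 500 bp of an annotated transcription start site (TSS), which is called a promoter here, lay 205 of 275 summits (74.5%, interval 69.0 to 79.6), against 62.8% of all IDR peaks. The share was 68.0% in the 25 strongest and 69.0% at ranks 301 to 600, and the median distance to the nearest TSS was 182 bp (quartiles 113.5 and 503.5). Of the promoter members 172 (83.9%, 78.1 to 88.7) lay upstream of the start. This was near the 78.4% of all promoter summits in the IDR list, and ranks 601 to 1500 had 84.5%. The promoter members had a median position of -129 bp (quartiles -191 and -83). In the weaker IDR classes this median was -118 bp (ranks 301 to 600), -107 bp (601 to 1500) and -58 bp (1501 to 6486). The zone from 250 to 100 bp upstream held 115 of the 205 (56.1%, 49.0 to 63.0), against 29.9% of all promoter summits in the IDR list.

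**Figure D4:**
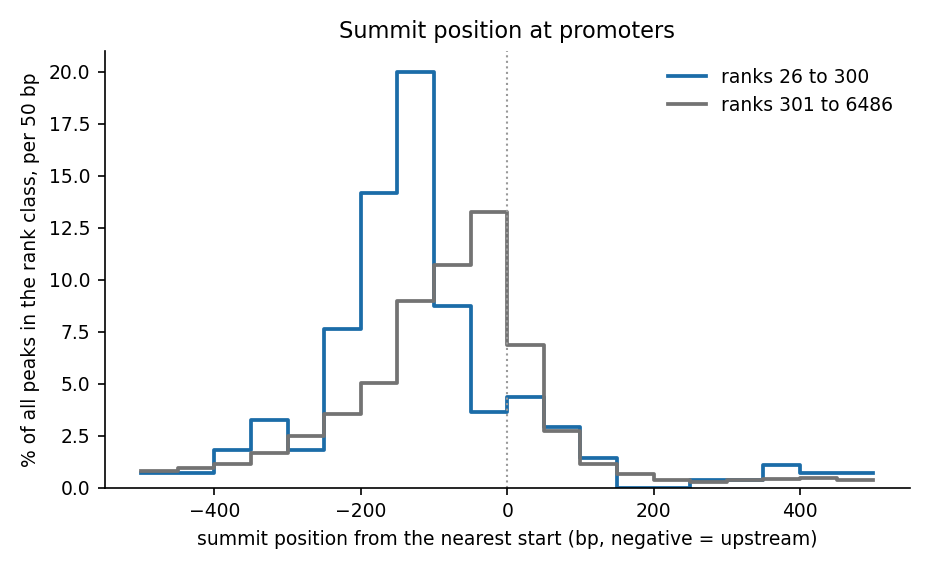
Summit position relative to the nearest start, in 50 bp steps, as a share of all peaks of the class (also those outside promoters). Ranks 26 to 300 reach 20% in the step from 150 to 100 bp upstream, whereas ranks 301 to 6486 are highest in the step just upstream of the start.

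Between the starts of divergent protein-coding genes at most 1000 bp apart lay 82 members (29.8%, 24.5 to 35.6), against 22.1% of all IDR peaks. The starts of such a pair were 52 to 906 bp apart, with a median of 277 bp. The nearest gene was protein-coding for 254 members (92.4%, against 91.4% of all IDR peaks), a noncoding RNA for 20 (7.27%, against 7.57%) and a tRNA for 1 (0.364%, against 0.555%), all near the overall shares. Introns outside promoters held 58 members (21.1%, 16.4 to 26.4), against 28.2% of all IDR peaks. Intergenic sequence outside promoters held 8 (2.91%, 1.26 to 5.65), against 6.12%. Noncoding exons held 3 (1.09%, against 0.755%), a 3′ UTR 1 (0.364%, against 0.987%) and coding exons 0 (against 0.170%). Members numbered 62 on 2L, 43 on 2R, 48 on 3L, 62 on 3R, 60 on X (21.8%, 17.1 to 27.2, against 20.8% of all IDR peaks on X) and 0 on chromosome 4, where 32 IDR peaks lay. Per Mb this is 2.64 on 2L, 2.55 on X and 1.70 to 1.93 on the other long arms, where all IDR peaks numbered 48.1 per Mb on 2L, 57.3 on X and 45.1 to 48.2 on the others.

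Members were wide for this list. Their width ranged from 339 to 1437 bp with a median of 446 bp (quartiles 404.5 and 524.5), whereas the median was 496 bp in the 25 strongest, 395 bp at ranks 301 to 600 and 350 bp over all IDR peaks. A width of exactly 416 bp, which 33.3% of all IDR peaks and 43.2% of ranks 1501 to 6486 have, was found at 2 members. Width did not simply follow signal. Spearman's rho between them was -0.0255 over all IDR peaks and 0.172 over the members. The widest were lncRNA:CR43963 (rank 190, 1437 bp), in an intron of the corepressor gene Smr, then CG10527 (rank 292, 1068 bp), su(r) (923 bp, near the end of the list), HmgZ (rank 32, 879 bp) and the weaker summit of ph-p (rank 60, 879 bp). The narrowest were Rtnl1 (rank 247, 339 bp), a reticulon of the endoplasmic reticulum, Eogt (rank 232, 341 bp), CG6287 (rank 182, 356 bp), the summit nearest to FBtr0445485_df_nrg in Tis11 (rank 288, 360 bp), and Icmt (rank 152, 361 bp). In 27 members the interval was listed again with another summit.

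Each of the 275 members overlapped a peak of both replicates. Their ranks were 20 to 701 in replicate 1, with a median of 163, and 22 to 434 in replicate 2, with a median of 164. In replicate 1 252 members were among the top 300 (91.6%), against 5.09% of all IDR peaks that overlap a top 300 peak, and in replicate 2 also 252, against 5.01%. Both replicates placed 229 members in their top 300, replicate 1 alone placed 23 and replicate 2 alone the other 23. Since the IDR list is built on these replicates, the overlap is no separate evidence. Spearman's rho between the 2 sets of ranks was 0.749 over the 275 members, which share these libraries and were chosen on the pooled signal. The summit lay within 20 bp of the replicate's own summit at 244 members in replicate 1 and 237 in replicate 2. At ph-p, CG9663 and Piezo the strongest overlapping replicate peak had its summit over 100 bp away, so its rank may belong to a neighbouring summit.

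**Figure D5:**
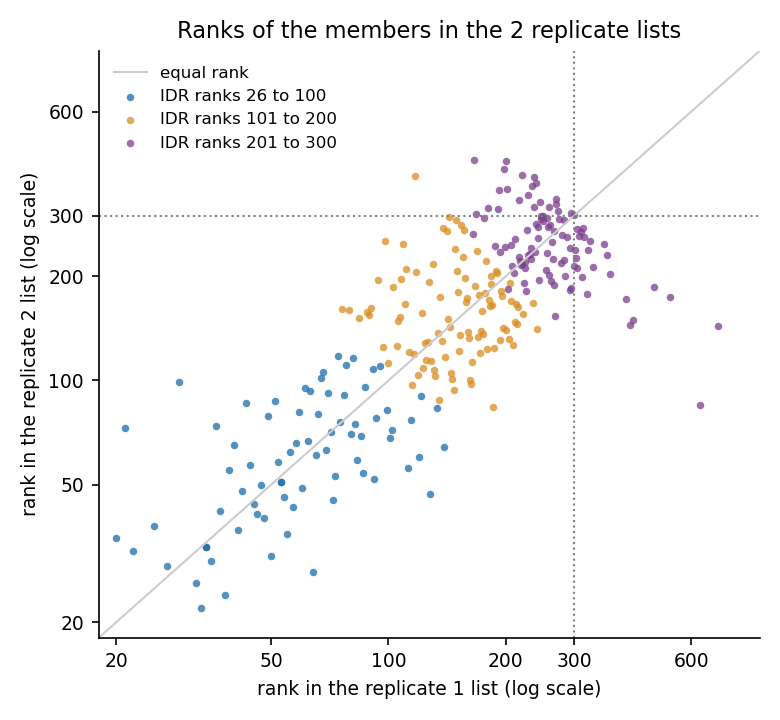
Rank of each member in the replicate 1 list against its rank in the replicate 2 list, on log axes, coloured by IDR rank, with dotted lines at rank 300. The points follow the line of equal ranks, with the members at ranks 632 and 701 of replicate 1 farthest from it.

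For 185 members the replicate ranks were within 1.5 times of each other. The other 90 fell on both sides. Replicate 1 ranked 53 members higher by at least 1.5 times, with a median width of 517 bp (quartiles 467 and 609). Replicate 2 ranked 37 higher, with a median width of 412 bp (389 and 453), and the rest had a median of 428 bp (402 and 497). GC content at the summit was 25.6% ± 8.12, 29.7% ± 8.65 and 27.7% ± 9.79 (SD over peaks) in the 3 classes, and promoters made up 73.6%, 70.3% and 75.7%. Read depth and fragment length of the libraries were not examined, and their part in this was not tested.

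The members lowest in replicate 1 stood high in replicate 2. Choice by the pooled signal favours this, since a member low in 1 replicate needed a high signal in the other. MFS15 (rank 297), a transporter-family gene, was at rank 701 with a signal of 400.0 in replicate 1 and at rank 144 with 744.6 in replicate 2. CG42359 (rank 204) had rank 632 with a signal of 421.5, and rank 85 with 973.0. CG42362 (rank 282) was at 528 and 175, Reph (rank 293) at 482 and 186, and CG17896 (rank 240) at 426 and 150. The members lowest in replicate 2 were Drat (rank 239, at 166 in replicate 1 and 434 in replicate 2), the transporter gene SLC5A11 (rank 272, 201 and 431), PGRP-SA (rank 273, 198 and 409), a peptidoglycan receptor of the Toll pathway, spen (rank 278, 220 and 392) and Piezo (rank 185, 117 and 391), a mechanosensitive channel. Every member was within the top 701 of replicate 1 and the top 434 of replicate 2.

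The members of ranks 26 to 50 had signals of 3329 to 2618 and replicate ranks of 20 to 64 in replicate 1 and 22 to 99 in replicate 2. At divergent pairs lay Pdrg1 with Pal1 (rank 26, chr2R:9959661-9960150, summit 165 bp upstream of Pdrg1), CenG1A with mRpS23 (rank 28, chr2L:13835267-13835672, 113 bp upstream of CenG1A), CG18428 with eIF4EHP (rank 29, 147 bp upstream of CG18428), CG11357 with CG32243 (rank 36), mRpL23 with CG9004 (rank 44) and Gk1 with CG13876 (rank 49). Pal1 encodes an enzyme of neuropeptide amidation, CenG1A an Arf GTPase-activating protein, mRpS23 and mRpL23 mitochondrial ribosomal proteins, eIF4EHP a cap-binding repressor of translation and Gk1 a glycerol kinase. Pdrg1 had a signal of 1964 in replicate 1 and 1383 in replicate 2. CenG1A had 1674 and 1614, which put it at rank 33 in replicate 1 and 22 in replicate 2.

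Other promoters in this range were those of the translation factor gene eIF6 with asRNA:CR45928 (rank 30), ph-p (rank 34), Hex-A (rank 35), gish (rank 37), CG9147 (rank 38), papi (rank 39), CG10165 (rank 40), bbx (rank 43), Ptpmeg2 (rank 45), Eno (rank 46), aay (rank 47) and Sptr (rank 48), and that of lncRNA:CR46036 (rank 42) inside osa, a subunit gene of the Brahma remodelling complex. The gene ph-p encodes a Polycomb protein, gish a casein kinase, papi a Tudor protein of the piRNA pathway, bbx an HMG-box protein, Ptpmeg2 a tyrosine phosphatase, aay phosphoserine phosphatase and Sptr sepiapterin reductase. From Hex-A to Sptr the upstream summits were 118 to 294 bp from the start, while CG9147 (14 bp), mRpL23 (68 bp) and ph-p (441 bp) had theirs downstream in the 5′ UTR. Outside promoters lay the summits in the introns of Trl (rank 27, chr3L:14759231-14759800, 1540 bp downstream of a start), the GAGA factor gene, of CG32486 (rank 31, 5718 bp from CG16753), of HmgZ and HmgD (rank 32, 603 bp upstream of HmgZ), chromosomal HMG-box proteins, and of CG9663 (rank 50, 938 bp), and the intergenic summits near CG31668 (rank 33, 3757 bp) and DNAlig3 (rank 41, 1289 bp). Trl had a signal of 1815 in replicate 1 and 1492 in replicate 2, at ranks 27 and 29.

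Of the 18 gene lists, glycolysis had the largest share of its genes at the members (23.1%). In all, 290 of 13945 protein-coding genes (2.08%) had a start within 500 bp of a member, and a summit between several starts counted for each gene. Of 13 glycolysis genes 3 were reached: Hex-A, a hexokinase, Eno, the enolase, and Pgk, phosphoglycerate kinase (rank 179). Hex-A had a signal of 1948 in replicate 1 and 1020 in replicate 2, at ranks 21 and 73. Eno had 1782 and 908.1, at ranks 29 and 99, and Pgk stood at ranks 149 and 292. These 3 summits were 200 to 413 bp upstream of the start and stood higher in replicate 1 each time. With the 25 strongest peaks added, 4 of the 13 genes were reached, and 11 of the 13 over all IDR peaks.

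Protein synthesis genes were spread through the ranks. Of 92 cytosolic ribosomal protein genes 10 (10.9%) had a member at a start: RpS27 (rank 70), RpL34b (rank 133), RpL7 (rank 149) and RpL14 (rank 150) were the strongest, and RpL13A, RpL24, RpL28, RpL23A and RpS10b lay at ranks 251 to 290. The summits of the genes named lay from 136 bp upstream to 35 bp downstream of the start. Of 73 mitochondrial ribosomal protein genes 5 (6.85%) had one: mRpS23, mRpL23, mRpL24 (rank 67), mRpS2 (rank 122) and mRpL20 (rank 152), whose summit is nearest to Icmt. Of 54 translation factors 3 (5.56%) had one, eIF4EHP, eIF6 and eIF1 (rank 280, the summit of RpL28). Of 33 aminoacyl-tRNA synthetases 1 (3.03%) had one, SerRS (rank 295), near the 2.08% of all protein-coding genes. Over all IDR peaks 81 of the 92 cytosolic and 51 of the 73 mitochondrial genes were reached (88.0% and 69.9%). The translation factors and synthetases had 57.4% and 54.5%, and all protein-coding genes 33.3%.

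Regulators came next. Of 69 chromatin and insulator genes 4 (5.80%) had a member at a start: ph-p, brm (rank 76), the ATPase gene of the Brahma complex, whose start is opposite Arl1, the insulator gene Cp190 (rank 90) and E(z) (rank 126), the H3K27 methyltransferase. Of 32 stress response transcription factors 3 (9.38%) had one, REPTOR (rank 61), a factor restrained by TORC1, Atf3 (rank 110) and cbt (rank 211). Of 32 kinases of growth and stress signalling 3 (9.38%) had one, gish, p38a (rank 94) and Mkk4 (rank 99), the last 2 of the stress-activated kinase pathways. Of 28 heat shock and chaperone genes Hsp83 (rank 83) and Hsp27 (rank 113) had one (7.14%), at ranks 68 and 106 and at ranks 123 and 109 in replicates 1 and 2. Of 68 genes for RNA polymerase II, general factors and Mediator, Taf5 (rank 127) and Polr2B (rank 262) had one (2.94%). Of 111 genes of vesicle traffic 5 (4.50%) had one, alphaCOP (rank 181), Rab5 (rank 191), Syx4 (rank 199), Vps33B (rank 259) and Snapin (rank 266). Of 46 immunity genes POSH (rank 219) and imd (rank 228) had one, and of 37 nervous system genes elav (rank 105).

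Oxidative phosphorylation (92 genes), proteasome (48), cell cycle and replication (52), splicing and mRNA processing (61) and lipid storage, synthesis and transport (29) had 0 genes with a member at a start. Over all IDR peaks those lists had 40, 17, 32, 38 and 23 bound genes, all but 1 of them at ranks beyond 300. Among the strongest 25 peaks 1 lipid gene was bound. In lists of this size the 2.08% found over all genes amounts to few genes, so these zeros are descriptions.

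Several genes held more than 1 of the 300 summits within 2 kb. The chromatin gene ph-p had summits 441 bp downstream (rank 34, signal 2994) and 460 bp upstream (rank 60, signal 2438) of its start, 615 bp apart. CG9663 held 2 summits 210 bp apart in 1 interval (ranks 50 and 88). The gene bbx had ranks 43 and 201, 1294 bp apart, aru, named arouser, ranks 101 and 197, 1456 bp apart, and cbt, a zinc finger gene, ranks 10 and 211, 1010 bp apart inside ush. CHES-1-like, a forkhead gene on X, held ranks 106 and 116, 1342 bp apart, and rank 223, which was 1399 bp from the summit of rank 15 that is nearest to lncRNA:CR43287 inside the same gene. In Tis11, a gene of mRNA decay, ranks 286 and 288 were 970 bp apart. On X lncRNA:CR44619 had ranks 19 and 125, 1042 bp apart. Pairs at neighbouring genes were jp with lncRNA:CR44149 (ranks 155 and 254, 1205 bp) and CG6785 with CG6770 (ranks 235 and 205, 1393 bp).

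The members farthest from any start were nearly all in long introns. The summit in sbb (rank 268), the gene scribbler, was 20104 bp from the nearest start. Within simj lay 2 summits, 12248 and 8072 bp from CG11811 (ranks 287 and 176). Also far off were the intergenic summit of rank 63, 11907 bp from CG13323, and summits in cic (rank 136, 8867 bp), a repressor acting downstream of receptor tyrosine kinases, spen (rank 278, 7664 bp), tara (rank 86, 5863 bp) and CG32486 (rank 31, 5718 bp). Their replicate ranks ran from 38 to 335 in replicate 1 and from 24 to 392 in replicate 2. A distance of 501 to 1000 bp was found for 27 members (9.82%), near the 10.04% of all IDR peaks. At 1001 to 2000 bp lay 15 (5.45%, interval 3.08 to 8.84), below the overall 9.71%. At 2001 to 5000 bp lay 19 (6.91%, 4.21 to 10.58), an interval that held the overall 10.41%. Farther off lay 9 (3.27%, 1.51 to 6.12), below the overall 7.0%.

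The limit at rank 300 separates near-equal signals. Just inside it were, in order, su(r) (signal 1151), a gene of pyrimidine breakdown, MFS15 (297, 1150), CG5335 (298, 1143), CG10602 (299, 1143) and subdued (300, 1143). Just outside were Rtnl1 (301, 1143), csw (302, 1140), Gdap2 (303, 1140), sp3 (304, 1139) and then CG17982 (1136). Their replicate ranks, from 263 to 701 in replicate 1 and from 144 to 379 in replicate 2, overlap between both sides. The summit of rank 301 is nearest to a start of Rtnl1, as is that of the narrow member of rank 247.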

How the data were processed

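Chromatin of 2 biological replicates was measured by ChIP-seq, and the authors deposited peak lists for each replicate, for the pooled replicates and after IDR. The values used are the deposited signal, the −log10 q as deposited by the authors, equal in all IDR peaks and not used for ranking, and the deposited summit offset. Per the labels the coordinates are dm6. They are printed counting from 1. Aligner, caller and IDR cutoff were each not given in the sources used here. The scale of signal is not stated, so it is compared within a list only. Read depth is unknown.

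Peaks on the 6 main arms were ranked by signal. A replicate rank is that of the strongest overlapping peak (1 bp) in the whole replicate list. Gene starts are those of Ensembl release 115 (transposable elements left out). Sequence was read from Release 6, and every peak lies within its arm lengths. Protein-coding genes were matched to 18 lists by symbol. Not every listed gene is reported here by name. Words were counted on both strands.

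The members, lists and rules were chosen with earlier results of these data known. The rule named ranks 26 to 50, up to 4 of the strongest members of each gene list, the 5 with the largest rank in each replicate, the 5 widest and 5 narrowest, the 8 farthest from a start, the 5 peaks to either side of rank 300, and genes with several summits within 2 kb. The 6 oriented words, their range of 25 to 150 bp, the base composition, the unequal replicate ranks and the stretches from summit to word, which run longer than the rule allowed, were chosen after seeing the data. The words came from surveys of all short words near the summit, for orientation also in ranks beyond 300. No test was made. Word counting was tested on simulated data. Alternatives ranked by each replicate alone, other numbers of members, and other windows. The software was Python 3.11.15 with numpy 2.4.6, pandas 2.3.3, scipy 1.17.1 (intervals) and, for figures, matplotlib 3.10.9.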

Additional observations from a re-analysis of the deposited data

How the results depend on the processing

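Of 129 recomputed shares, medians and means, 107 stayed within the interval of the reported value or, for medians and mean GC, within 1 SD of the values from ranking by each replicate alone. That SD rests on 2 values and was small for distance and GC. When 1 replicate set the ranking, the promoter share was 74.2% to 75.6%, the intronic share 19.6% to 21.1%, the X share 22.2% either way, the divergent share 28.7% to 29.1%, the first word family 13.5% to 14.9%, the second 22.5% to 24.0%, and mean GC 27.5% to 27.9%. The median distance was 186 to 193 bp and the median width 369 to 427 bp. Ranked by replicate 2, 83.3% of its ranks 26 to 300 were in the top 300 of replicate 1, and 83.3% in the reverse case.

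The promoter share was 62.9% with a 250 bp window and 84.4% with a 1000 bp window, and the divergent share 36.0% with starts up to 2000 bp apart. The median distance was 170 bp at ranks 26 to 150, 194 bp at ranks 26 to 600 and 190 bp to protein-coding starts. At ranks 26 to 150, 86.4% were in the top 150 of replicate 2. Mean GC was 27.0% at ranks 26 to 150 and 28.8% at ranks 26 to 600, and the first word family was at 20.8% and 9.74%. The GC and word family alternatives were chosen after seeing the data. Of the promoter element words 6 of 66 values moved, each with the 50 bp window. Gene list counts were taken as moved beyond 1.5 times. With promoter windows of 250 and 1000 bp this held for 3 of 36 counts at ranks 1 to 300 and for 4 of 36 at ranks 26 to 300, a set added after seeing the data. At 250 bp the mitochondrial ribosomal proteins went from 5 to 3 genes, immunity from 2 to 1 and nervous system from 1 to 0, and glycolysis, within that limit, from 3 to 2. At 1000 bp splicing and mRNA processing went from 0 to 1. No paired analysis was possible because there is 1 group. Depth is unknown, so its limits could not be examined.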
